A study of Mus musculus with 8 samples.

Results

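The thin filament regulators are the proteins that sit on actin in smooth muscle and set how it is used. The group described here holds 10 genes: Tagln, Cnn1, Cnn2, Tpm1, Tpm2, Tpm3, Tpm4, Cald1, Smtn and Lmod1. Its members are all probe sets of the deposited table whose annotation gives exactly 1 of these symbols, which are 24 of 45037 probe sets. Of the 24, 21 were bright enough to be tested, among 27029 in all, and each of the 10 genes kept at least 1.

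Messenger RNA was measured on Affymetrix mouse arrays, in total RNA of whole aorta from 4 month-old mice, with 4 arrays of mutants and 4 of controls. The mutants have the label SRF-flex2neo -SM22CreERT2ki/+ and are described as a knockout of serum response factor (SRF) limited to smooth muscle. The controls are littermates with the label SRF-flex2neo, so both groups carry the modified Srf gene. Mice of both groups were given 1 mg tamoxifen intraperitoneally on 3 days, and the mice were killed 8 days later. The Cre recombinase, which tamoxifen activates, is placed in an allele of Tagln (also called SM22), so deletion can occur only in cells that use that gene, and the mutants have an altered allele of a gene that is itself a member. The controls have no Cre in their label. Array titles carry a set number, and set 1 (controls 1 and 2, mutants 1 and 2) and set 2 (controls 3 and 4, mutants 3 and 4) each hold both groups. The labels do not say what the set number means. It is also not stated whether each array was a separate mouse, so the p-values speak only of the spread between arrays, which may be technical.

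In a smooth muscle cell, tropomyosins lie as coiled coils along the actin filament, and calponin and caldesmon bind actin and hold back the myosin motor until calcium or phosphorylation releases them. Smooth muscle has no troponin of the kind that switches striated muscle on, and contraction is started by phosphorylation of myosin light chain instead. Several of these genes are textbook targets of SRF, which binds the CArG box, an A/T-rich DNA element, together with its cofactor myocardin. Tagln, Cnn1, Smtn and Lmod1 are widely used as markers of differentiated smooth muscle, while Cnn2, Tpm3, Tpm4 and the shorter form of caldesmon are also made in many other cells.

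Values are log2 expression values per probe set, so a difference of 1 is a 2-fold change. Every difference is mutant minus control, with the moderated standard error (SE) and the Benjamini-Hochberg adjusted p of limma with the set as a term, at a threshold of 0.05. The values of different probe sets are not on one scale of abundance, and no level is set against that of another gene. The array medians lay between 3.72 and 3.98, and mutant 2 stood apart from the rest, with correlations of 0.961 to 0.974 to the other 7 arrays against 0.983 to 0.997 among those. The number of arrays limits the precision. Srf itself was at 10.52, 10.20, 10.15 and 10.34 in controls 1 to 4 and at 10.21, 9.54, 10.32 and 10.34 in mutants 1 to 4 (difference -0.20, SE 0.19, adjusted p = 0.686), and the place of its probe sets relative to the deleted part is not known here. The defining markers of smooth muscle were all well above the lowest values of the table in both groups: of 9, the lowest mean was that of Des, at 10.42 in controls and 9.64 in mutants.

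The stretches of DNA just before the members' start sites were searched for the element that SRF binds, since the mutants were made to lack SRF. The RefSeq table of promoter windows (build GRCm38.p6), each from 250 bases before to 50 bases after a start site, held 11 windows for 9 of the 10 genes, and Tagln was not matched. An exact CArG box was in 1 of the 11 windows, that of Cnn2, against 1.63% of all 32851 windows. With 1 mismatch allowed, 6 of the 11 held a match, against 21.1% of all windows. These were the windows of Cnn2, Tpm1 and Lmod1, both windows of Tpm3, and the first of the 2 windows of Cald1. The element reads the same on both strands as a class, so each match counts once. The windows of Cnn2, Tpm1 and Lmod1 are shown around their matches as 50 bases on the gene's strand, with the match in capitals: Cnn2 holds the exact match, and Tpm1 and Lmod1 hold 2 matches each and are muscle genes of the group. Of Tpm3, which is not shown, the first window holds 1 match and the second 2, each with 1 mismatch. A match is only a run of letters, and its absence from a window says nothing of elements elsewhere in a gene.
Cnn2, exact match, chr10:79988524-79988573, + strand: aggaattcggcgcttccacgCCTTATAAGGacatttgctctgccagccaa
Tpm1, match with 1 mismatch, chr9:67049405-67049454, - strand: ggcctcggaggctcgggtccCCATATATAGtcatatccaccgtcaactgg
Tpm1, match with 1 mismatch, chr9:67049264-67049313, - strand: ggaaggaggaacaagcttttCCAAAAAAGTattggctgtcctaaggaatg
Lmod1, match with 1 mismatch, chr1:135324604-135324653, + strand: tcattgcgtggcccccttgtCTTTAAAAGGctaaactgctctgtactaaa
Lmod1, match with 1 mismatch, chr1:135324629-135324678, + strand: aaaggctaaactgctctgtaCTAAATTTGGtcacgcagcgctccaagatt

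The exact match of Cnn2 lies at positions -56 to -47 relative to its start site. The matches of Tpm1 begin at -221 and -80, and those of Lmod1 at -189 and -164. The windows of Cnn1, Tpm2, Tpm4 and Smtn held no match even with 1 mismatch. Cnn2, the only gene of the 9 with an exact match in its window, differed by -0.09 between groups, the median of the members.

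Most thin filament regulators had lower values in the mutant aorta, by small amounts, and none passed the test. Of the 21 probe sets tested, 17 were lower and 4 higher, where 59.9% of all probe sets tested were lower. The median difference was -0.09, beside -0.035 for all probe sets tested. With the brightest probe set standing for each gene, 9 of 10 genes were lower, and the median was -0.175 beside -0.0175 for all 12176 genes. By limma, 0 of 21 passed an adjusted p of 0.05, as did 0% of all probe sets tested. At an unadjusted p under 0.05, 7 member probe sets were lower, where 5.05% of all were, and 0 were higher, where 4.50% of all were. These 7 belonged to Tagln, Cnn1, Tpm1 and Tpm2. In 5 of the 21 every mutant lay below every control, against 1.57% of all probe sets tested, and in 0 every mutant lay above every control, against 1.43%. In 9 of the 21 both mutants of each set lay below both controls of that set, against 6.17% of all.

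**Figure D1:**
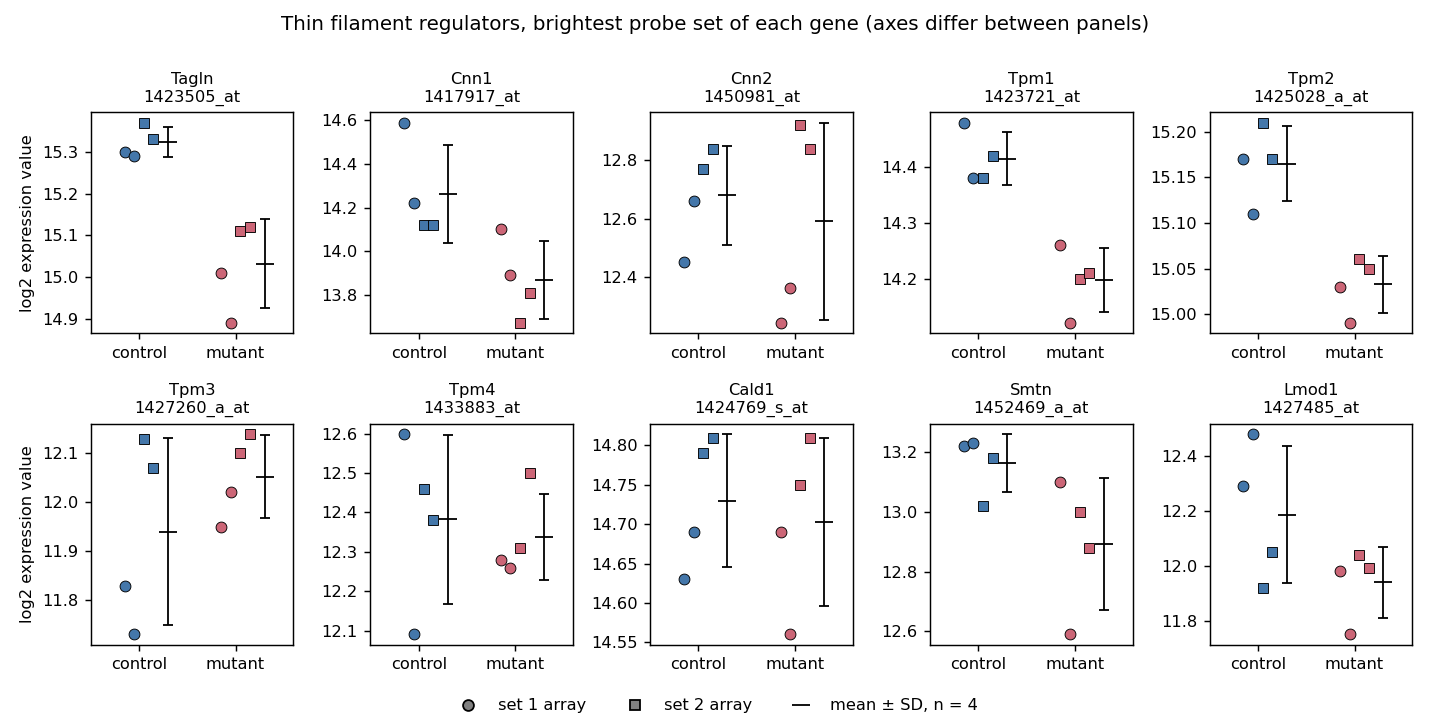
Log2 expression value (vertical axis, different in each panel) of the brightest probe set of the 10 genes in each control and mutant array, with circles for set 1, squares for set 2 and the mean ± SD of 4 arrays beside them. Tagln, Cnn1, Tpm1 and Tpm2 show no overlap between groups, while the groups of Cnn2, Tpm3, Tpm4, Cald1, Smtn and Lmod1 overlap.

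Tagln, the small calponin-like actin-binding protein SM22, was at 15.30, 15.29, 15.37 and 15.33 in controls 1 to 4 and at 15.01, 14.89, 15.11 and 15.12 in mutants 1 to 4. All mutants were below all controls, and mutant 2 was the lowest. The means were 15.32 ± 0.04 and 15.03 ± 0.11 (SD, n = 4 each), a ratio of mutant to control of 0.818. The difference of -0.29 (SE 0.05, 95% confidence interval -0.42 to -0.16) had a limma adjusted p of 0.376, and the exact permutation test over arrays (two-sided) reached p = 0.0286, the smallest that 4 against 4 allows. It was -0.345 in set 1 and -0.235 in set 2. Since the Cre sits in an allele of Tagln in every mutant, the insertion and the SRF knockout described for the mutants cannot be told apart for this gene. For the other members too, the Cre and the altered Tagln allele cannot be told apart from the knockout, since no control has Cre in its label. Its values are also close to 15.82, the table's maximum, and differences so high on the scale may be understated.

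Cnn1, the smooth muscle calponin, which inhibits the myosin motor on actin, was at 14.59, 14.22, 14.12 and 14.12 in controls 1 to 4 and at 14.10, 13.89, 13.67 and 13.81 in mutants 1 to 4. The groups did not overlap, although controls 3 and 4 lay just above mutant 1, and set 2 was lower than set 1 in both groups. The means were 14.26 ± 0.22 and 13.87 ± 0.18 (SD, n = 4 each). The difference was -0.395 (SE 0.10, 95% confidence interval -0.62 to -0.17, limma adjusted p = 0.389), a ratio of 0.76. It was nearly the same in both sets, -0.41 and -0.38. Among the brightest probe sets of the 10 genes this was the largest difference.

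Cnn2, a calponin that is also made in many cells other than muscle, was at 12.45, 12.66, 12.77 and 12.84 in controls 1 to 4 and at 12.24, 12.36, 12.92 and 12.84 in mutants 1 to 4. The groups overlapped, and the sets lay further apart than the groups. The difference was -0.09 (SE 0.09, 95% confidence interval -0.30 to 0.12, limma adjusted p = 0.705), made of -0.255 in set 1 and 0.075 in set 2. Values were higher in set 2 than in set 1 by 0.415 (SE 0.09, limma adjusted p = 0.0201). Within each array, Cnn1 changed by -0.305 relative to Cnn2 and Tagln by -0.20 relative to Cnn2. Neither relative change passed an exact permutation test of 4 against 4 arrays (p = 0.314 and p = 0.229, and 0.404 and 0.386 adjusted over the 9 pairs of family members compared). Tagln changed by 0.105 relative to Cnn1 (exact permutation p = 0.60). The test exchanges arrays between sets, does not take the set into account, and over 9 pairs turns a lone pair at its smallest p into an adjusted 0.257, so a miss says little. In none of the 3 calponin family pairs did the arrays of the 2 groups separate in the same direction in both sets.

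The tropomyosins were split in direction. All 3 tested probe sets of Tpm1 and all 4 of Tpm2, the main tropomyosin genes of muscle, were lower in mutants, while 3 of 4 tested for Tpm3, a gene used in slow muscle fibres and in most non-muscle cells, were higher. Single values of a gene with several probe sets follow, because the parts of the gene that the probe sets cover are not known here and the forms made by alternative splicing cannot be told apart.

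Of Tpm1, the brightest probe set, 1423721_at, was at 14.48, 14.38, 14.38 and 14.42 in controls 1 to 4 and at 14.26, 14.12, 14.20 and 14.21 in mutants 1 to 4. The lowest control was above the highest mutant. The difference was -0.22 (SE 0.06, 95% confidence interval -0.35 to -0.09, limma adjusted p = 0.415), with -0.24 in set 1 and -0.195 in set 2. The second, 1423049_a_at, was at 13.77, 13.65, 13.55 and 13.30 in controls and at 13.47, 13.17, 13.11 and 13.16 in mutants 1 to 4. Control 4 lay below mutant 1, but within each set the groups did not overlap, and the difference was -0.34 (SE 0.09, limma adjusted p = 0.433). The third, 1456623_at, was at 9.42, 9.69, 9.69 and 10.18 in controls and at 9.29, 9.11, 9.61 and 9.66 in mutants 1 to 4, a difference of -0.33 (SE 0.12, limma adjusted p = 0.501) with overlap between the sets and none within them. The last, 1447713_at, was too dim to be tested, with values of 2.01 to 2.30. The 3 tested probe sets thus differed by -0.22 to -0.34, in the same direction in both sets.

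For Tpm2 the brightest probe set, 1425028_a_at, was at 15.17, 15.11, 15.21 and 15.17 in controls 1 to 4 and at 15.03, 14.99, 15.06 and 15.05 in mutants 1 to 4. Every mutant was below every control, by a small step: the difference was -0.13 (SE 0.05, limma adjusted p = 0.484). The next, 1419738_a_at, differed by -0.055 (SE 0.05, limma adjusted p = 0.668), with overlapping groups. Both lie near the top of the measured range. The dimmer probe set 1419739_at was at 8.76, 8.86, 8.54 and 9.01 in controls and at 7.93, 7.86, 8.24 and 8.17 in mutants 1 to 4. The groups did not overlap, and the means were 8.79 ± 0.20 and 8.05 ± 0.18 (SD, n = 4 each), a ratio of 0.598. That difference of -0.74 (SE 0.13, 95% confidence interval -1.04 to -0.44) was the largest of all 21 and ranked 39th by p among all probe sets tested, with a limma adjusted p of 0.376. The last, 1449577_x_at, whose name marks it as sharing some probes with other sequences and which is therefore uncertain, was at 7.65, 7.82, 6.74 and 7.03 in controls and at 7.20, 6.93, 6.93 and 6.93 in mutants 1 to 4. It differed by -0.67 in set 1 and by 0.045 in set 2.

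**Figure D2:**
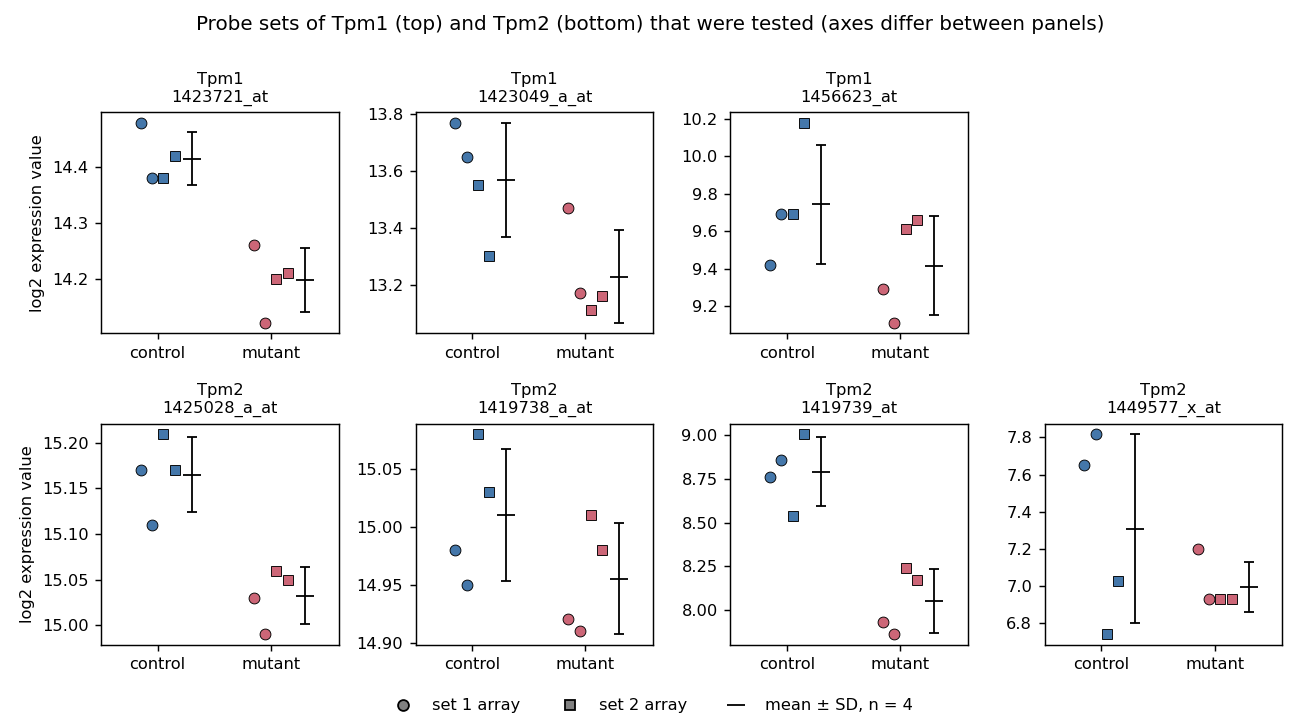
Log2 expression value (vertical axis, different in each panel) of the tested probe sets of Tpm1 in the upper row and Tpm2 in the lower row, by group, with circles for set 1, squares for set 2 and the mean ± SD of 4 arrays. In 1419739_at of Tpm2 the mutants sit between 7.86 and 8.24 and the controls between 8.54 and 9.01, while in 1449577_x_at the groups overlap.

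For Tpm3 the brightest probe set, 1427260_a_at, was at 11.83, 11.73, 12.13 and 12.07 in controls 1 to 4 and at 11.95, 12.02, 12.10 and 12.14 in mutants 1 to 4. In set 1 both mutants were above both controls, and in set 2 the groups overlapped. The difference was 0.11 (SE 0.06, 95% confidence interval -0.03 to 0.26, limma adjusted p = 0.579). Probe sets 1427567_a_at and 1436958_x_at differed by 0.0675 (SE 0.09) and 0.105 (SE 0.08), and the first of these was -0.005 when each array was centred on its median, which moved every probe set by -0.0725. The x in the name of 1436958_x_at again marks probes shared with other sequences. Another, 1449997_at, differed by -0.03 at values of about 3, near the limit of 2.972 for being tested, and 1449996_a_at was too dim to be tested, with values of 2.32 to 2.56.

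Tpm4, a tropomyosin mainly of non-muscle cells, was at 12.60, 12.09, 12.46 and 12.38 in controls 1 to 4 and at 12.28, 12.26, 12.31 and 12.50 in mutants 1 to 4. Controls 1 and 2 were the highest and the lowest of all 8 arrays. The difference was -0.045 (SE 0.11, 95% confidence interval -0.31 to 0.22, limma adjusted p = 0.887), and it was 0.063 without control 1 and -0.141 without control 2. Within arrays, Tpm1 changed by -0.33 relative to Tpm3 and Tpm2 by -0.245 relative to Tpm3, each with an exact permutation p of 0.0571 (0.171 adjusted over the 9 pairs). The sign held in each set, with -0.445 and -0.215 for Tpm1 and -0.335 and -0.155 for Tpm2. Relative to Tpm4 the changes were -0.17 and -0.0875, with exact permutation p of 0.171 and 0.371. Tpm1 changed by -0.085 relative to Tpm2 (exact permutation p = 0.0571), and Tpm3 by 0.1575 relative to Tpm4 (exact permutation p = 0.257). None of the 6 tropomyosin pairs passed after adjustment, with the limits of the test given for the calponins. For Tpm1 relative to Tpm3, Tpm2 relative to Tpm3 and Tpm1 relative to Tpm2, both mutants lay below both controls within each set.

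Cald1, which encodes caldesmon, an actin- and myosin-binding inhibitor with a long smooth muscle form and a short form of other cells, differed least by the brightest probe set of each gene. That probe set, 1424769_s_at, was at 14.63, 14.69, 14.79 and 14.81 in controls 1 to 4 and at 14.69, 14.56, 14.75 and 14.81 in mutants 1 to 4. The groups covered nearly the same range, and the difference was -0.03 (SE 0.05, 95% confidence interval -0.15 to 0.10, limma adjusted p = 0.849). The next probe sets, 1424768_at and 1424770_at, differed by -0.05 (SE 0.11) and -0.025 (SE 0.09), and both turned above 0 without mutant 2, at 0.05 and 0.057, the second also without control 2, at 0.015. Their 95% confidence intervals ran from -0.31 to 0.21 and from -0.25 to 0.20, so changes within these ranges, in either direction, are not excluded.

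Another Cald1 probe set, 1433147_at, separated the sets and not the groups. It was at 8.48 and 8.14 in the controls of set 1 and at 9.48 and 9.59 in those of set 2, and at 8.33 and 8.01 in the mutants of set 1 and at 9.88 and 9.71 in those of set 2. Set 2 was higher by 1.425 (SE 0.13, limma adjusted p = 0.0012), while the other 3 tested probe sets of the gene differed between sets by -0.05 to 0.15. Both mutants of set 2 were above both controls of set 2, and in set 1 the groups overlapped. The mutant difference was 0.06 (SE 0.13), -0.14 in set 1 and 0.26 in set 2, and it was -0.0125 after centring on array medians. Over all members, 3 of 21 probe sets differed between sets, those of Cnn2, Tpm3 (1427260_a_at) and Cald1 (1433147_at), all higher in set 2, and 21.4% of all probe sets tested did so. The remaining Cald1 probe set, 1433146_at, was too dim to be tested, with values of 2.62 to 2.74.

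Smtn, which encodes smoothelin, an actin-associated protein of contractile smooth muscle, was at 13.22, 13.23, 13.02 and 13.18 in controls 1 to 4 and at 13.10, 12.59, 13.00 and 12.88 in mutants 1 to 4. Each set had both mutants below both controls, with mutant 3 just below control 3. The difference was -0.27 (SE 0.12, 95% confidence interval -0.55 to 0.01, limma adjusted p = 0.538). Mutant 2 was the lowest array, and without it the difference was -0.146.

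Lmod1, which encodes the smooth muscle leiomodin, a protein that starts new actin filaments, was at 12.29, 12.48, 11.92 and 12.05 in controls 1 to 4 and at 11.98, 11.75, 12.04 and 11.99 in mutants 1 to 4. Both mutants were below both controls in set 1, and in set 2 the groups overlapped. The difference was -0.245 (SE 0.13, 95% confidence interval -0.55 to 0.06, limma adjusted p = 0.574), and it was -0.144 without mutant 2. It came to -0.52 in set 1 and 0.03 in set 2.

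**Figure D3:**
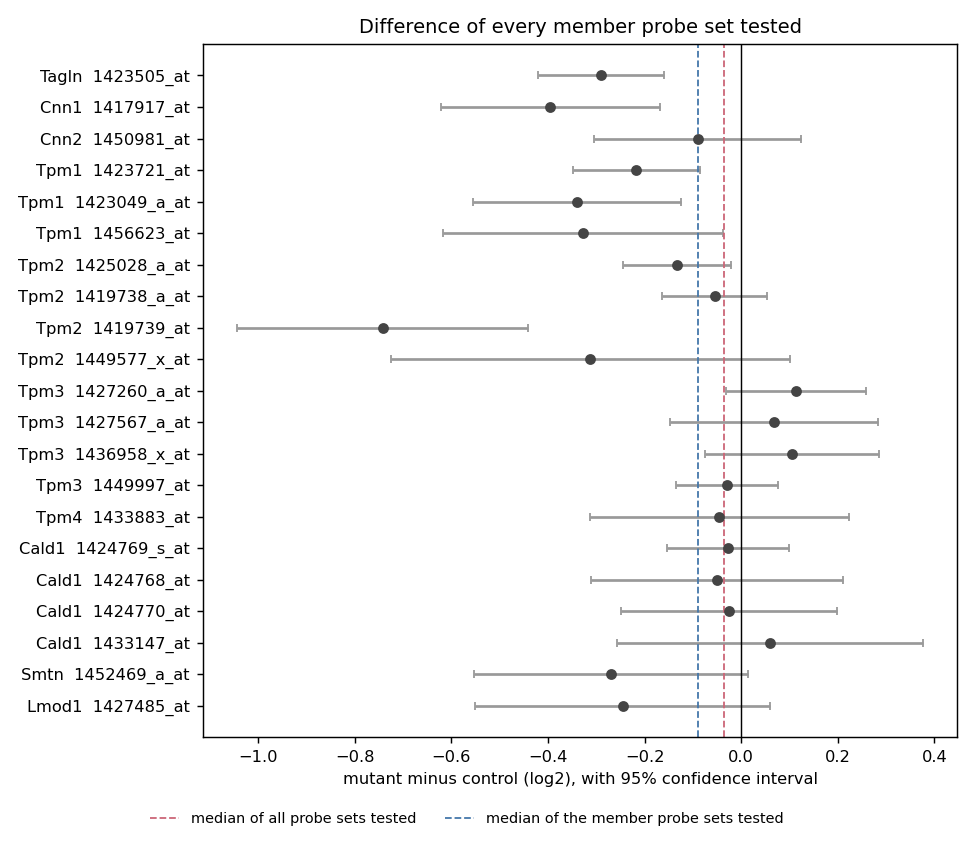
Mutant minus control difference on the log2 scale (horizontal axis) with its 95% confidence interval for each of the 21 member probe sets tested, grouped by gene, with dashed lines at the median of the members (-0.09) and of all probe sets tested (-0.035). The lowest value is -0.74 in 1419739_at of Tpm2 and the highest 0.11 in 1427260_a_at of Tpm3.

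The sets gave the same sign for some members and not for others. In 13 of the 21 probe sets the difference was below 0 in both sets, where 35.1% of all probe sets tested were, and the members' median was -0.14 in set 1 and -0.02 in set 2. Tagln, Cnn1, Smtn, the 3 probe sets of Tpm1 and 3 of the 4 of Tpm2 were among the 13. Cnn2, Lmod1, Tpm2 1449577_x_at and Cald1 1424770_at and 1433147_at were lower in set 1 only. The test of the difference between sets itself, the genotype by set interaction in limma, passed for 0 of 21 members and for 0.0518% of all probe sets tested (members' lowest adjusted p = 0.824). The largest interactions were those of Tpm2 1449577_x_at (0.715) and Lmod1 (0.55), with unadjusted p of 0.0234 and 0.0149.

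**Figure D4:**
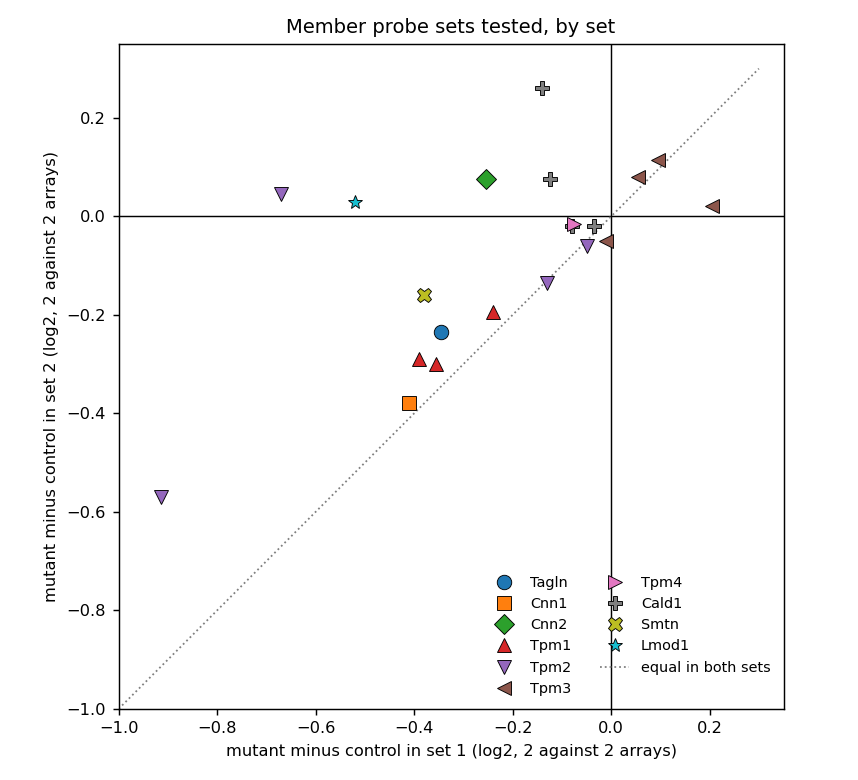
Mutant minus control difference on the log2 scale of the 21 member probe sets tested in set 1 (horizontal axis) against set 2 (vertical axis), each from 2 against 2 arrays, with the dotted line where both are equal. Cnn1 lies on the line at -0.41 and -0.38, whereas Lmod1 lies at -0.52 and 0.03.

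The members moved together to different degrees. With each array's values taken relative to the mean of its set, the mean of the 10 brightest probe sets was 0.143 and 0.0753 in controls 1 and 2, 0.0408 and 0.0608 in controls 3 and 4, -0.0488 and -0.17 in mutants 1 and 2, and -0.0603 and -0.0412 in mutants 3 and 4. All controls were above 0 and all mutants below. Over the 8 arrays, Pearson's r of a gene with the mean of the other 9 was 0.964 for Tpm1, 0.938 for Tagln, 0.883 for Tpm2, 0.87 for Cnn1 and 0.817 for Smtn. It was 0.694 for Lmod1, 0.496 for Cald1, 0.285 for Cnn2 and 0.22 for Tpm4, and -0.83 for Tpm3. These arrays share the genotype split, so the values are a description. Among 12166 other genes the profile was most like those of Filip1 (r = 0.997), Bves (r = 0.993), Cavin3 (r = 0.991), Saysd1 (r = 0.986) and B4galt2 (r = 0.985), each with Spearman's rho of 0.976 over the 8 arrays. None of these 5 passed between groups either, and their differences ran from -0.37 (Saysd1) to -1.01 (Bves).

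Relatives of the members were split in direction. Tested genes of the calponin, transgelin, smoothelin-like, leiomodin and tropomodulin families numbered 9. Of these, 4 were lower and 5 higher, where 6694 of all 12176 genes were lower. The median was 0.045, or 0.001 without mutant 2, and 0 passed. Among the 5 higher, Tmod2 (2.085 in set 1 and 0.13 in set 2) and Tagln3 (1.865 and -0.07) differed mainly in set 1. The smallest p were those of Tmod3 (0.27, SE 0.09) and Tmod1 (-0.21, SE 0.10), which cap the pointed end of actin filaments, and of the calponin gene Cnn3 (-0.21, SE 0.13).

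Of 16 tested actins and direct actin partners, 12 were lower and 4 higher, where 6694 of all 12176 genes were lower, with a median of -0.14 and 0 passing. The smallest p were those of Cfl2 (-0.39, SE 0.11) and Cfl1 (0.195, SE 0.06), the muscle and non-muscle cofilins that sever actin, and of Synpo2 (-0.485, SE 0.15), an actin-bundling protein of muscle. In 4 of the 16 (Cfl2, Synpo2, Actn1 and Flna) all mutants were below all controls, against 216 of all 12176 genes. In 1 (Cfl1) all were above, against 251.

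For the thick filament and the switch that turns contraction on, 13 of 15 tested genes were lower and 2 higher, with a median of -0.21 and 0 passing. Ppp1r14a, an inhibitor of myosin phosphatase, differed by -0.59 (SE 0.06, limma adjusted p = 0.102) and Myh11, the smooth muscle myosin heavy chain, by -0.21 (SE 0.05, limma adjusted p = 0.384). Myh9, a non-muscle myosin heavy chain, differed by 0.365 (SE 0.09, limma adjusted p = 0.384). Of SRF and its cofactors, 4 of 7 genes were lower and 3 higher, with a median of -0.05 and 0 passing. The smallest p belonged to Mrtfb (0.22, SE 0.09), Elk3 (0.37, SE 0.18) and Elk4 (0.20, SE 0.10).

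Markers of endothelium, adventitial fibroblasts and leukocytes had higher values in the mutants, with larger median differences in set 1 than in set 2. Of the markers tested, 10 of 10 endothelial, 10 of 10 adventitial fibroblast and 10 of 10 leukocyte genes were higher in mutants, with median differences of 0.97, 1.02 and 1.08, while 9 of 9 smooth muscle markers, 4 of which are members, were lower with a median of -0.25. The smooth muscle markers ran from -0.78 (Des, SE 0.30) to -0.015 (Acta2, SE 0.05). The means of Acta2, 15.37 in controls and 15.36 in mutants, are close to 15.82, the table's maximum, so its difference may be understated. No single marker passed. The summed level (log2 of the sum of unlogged values) was 10.01 to 11.09 in controls and 11.10 to 11.95 in mutants for leukocytes, 11.37 to 12.39 and 12.00 to 13.65 for endothelium, 14.68 to 15.64 and 15.52 to 15.84 for fibroblasts, and 17.34 to 17.41 and 17.08 to 17.22 for smooth muscle. Their part in the members' differences was not tested, and in whole tissue fewer smooth muscle cells and less RNA per cell cannot be told apart. Striated muscle, which also makes tropomyosins and leiomodins, had 10 of 14 tested markers lower and 4 higher (median -0.05), with a summed level of 9.52 to 13.13 in controls and 9.42 to 12.69 in mutants, and 6 of its 20 markers, Myh1, Myh2, Tnnt3, Tnni1, Tnni2 and Tnnc2, were too dim to be tested. Its median was -0.24 without mutant 2. The summed level of striated muscle was 9.42 to 10.79 in the arrays of set 1 and 11.38 to 13.13 in those of set 2. By limma 7 of the 14 differed between sets, all higher in set 2, where 2021 of all 12176 genes differed. Fat (5 of 5 tested) and nerve markers (6 of 6) had higher means in mutants, with medians of 1.11 and 1.92, but this came from set 1, and for nerve mainly from mutant 2. The mean log2 value of the nerve markers was 10.04 in mutant 2 and 2.88 to 3.56 in the other arrays. The median differences of fat and nerve were 2.765 and 3.90 in set 1 and -0.54 and -0.0075 in set 2, and 0.44 and -0.001 without mutant 2. The summed levels were 14.02 to 14.81 in controls and 14.16 to 16.43 in mutants for fat, and 5.59 to 7.26 and 6.85 to 13.82 for nerve. Without mutant 2 the members' median was -0.081, that of the smooth muscle markers -0.146, and the medians of endothelium, fibroblasts and leukocytes were 0.75, 1.00 and 0.98.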

How the data were processed

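Affymetrix arrays were hybridised with cRNA made from 2 ug of total RNA, per the labels' protocols. The authors deposited log2 values per probe set, with GCOS named in the submitters' processing notes. No source used here states how background was corrected or arrays were normalized, and the log2 scale was read from the values (0.9 to 15.82). Probe sets were named by the platform annotation: 34945 have 1 symbol, 932 several and 9160 none. The 40% with the lowest mean over 8 arrays were left out, which left 27029. Linear models with a term for genotype and another for set were fitted in R 4.3.3 with limma 3.58.1 (prior variance following the mean level). Two-sided p-values were adjusted by Benjamini-Hochberg across every probe set tested. On 5 simulated tables with 200 changed probe sets each, it recovered 22% of changes of 0.5, 68.8% of 1 and 90% of 2 on the log2 scale, with 11.2 false calls per table. The simulated noise was independent between probe sets and arrays, and the changed probe sets were drawn at random from all tested. These rates are therefore not those of the members in the real arrays. The members and lists were chosen with earlier results of these data known. All members are named, each gene in every array by its brightest probe set and further probe sets by p or sign, and from each of the 4 gene lists the 3 genes with the smallest p, while the marker lists are given by counts and medians. List medians use each gene's brightest probe set. Pairs of family members were added after the data were seen. Replicates were numbered in sample order. Figures were drawn with Python 3.11.15.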

Additional observations from a re-analysis of the deposited data

Results flagged for a closer look

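Among 42 groups of 4 arrays, 2 from each of the 21 probe sets tested, 2 held an array far from the other 3, where chance gives about 1 in 20. In Tpm1 1423049_a_at, mutant 1 was at 13.47 and the other mutants between 13.11 and 13.17. In Tpm2 1449577_x_at, mutant 1 was at 7.20 and the other mutants were all at 6.93.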

How the results depend on the processing

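No member probe set passed in any of the 20 alternatives, 419 tests in all (lowest adjusted p 0.0559, Tpm2 1419739_at without control 3). The numbers of member probe sets that were lower ranged from 13 of 21 (set 2 alone) to 19 of 21 (median centring), with 19 of 24 without a filter, and the members' median from -0.1625 (median centring) to -0.02 (set 2 alone), with -0.141 (without control 2) to -0.081 (without mutant 2) when leaving out single arrays. Of all probe sets, 2 passed with set as a random block, 10 with array weights, and 0 to 11 when an array was left out, 11 of them without control 3. Signs of small differences turned. With median centring, which moved every probe set by -0.0725, Tpm3 1427567_a_at was at -0.005 and Cald1 1433147_at at -0.0125. With array weights, Cald1 1424769_s_at was at 0.0055, 1424768_at at 0.059 and 1424770_at at 0.039. In set 1 alone, Cald1 1433147_at was at -0.14, and in set 2 alone Cnn2 was at 0.075, Tpm2 1449577_x_at at 0.045, Cald1 1424770_at at 0.075 and Lmod1 at 0.03. Leaving out single arrays gave -0.141 to 0.063 for Tpm4, -0.138 to 0.05 for Cald1 1424768_at, -0.083 to 0.057 for 1424770_at and -0.014 to 0.168 for 1433147_at. The cause was not tested. Tagln, Cnn1, Smtn, the tested probe sets of Tpm1, the other 3 of Tpm2 and, where tested, Tpm3 1449997_at stayed lower, and Tpm3 1427260_a_at and 1436958_x_at stayed higher, in all 20. Control and mutant titles share numbers in set 2 only, where deviations of equal numbers correlated at 0.00915. With those numbers as a replicate block the members' median was -0.09 and 0 passed.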
